A study of Mus musculus with 10 samples.

Results

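*Acta1*, *Ckm*, *Myh4*, *Myh1*, *Myh2*, *Myh7*, *Tnnt3*, *Tnni2*, *Mylpf* and *Atp2a1* are genes of the skeletal muscle fibre, and their rows, found by symbol, are 10 of the 55401 gene rows counted in each B16F10 tumor. The B16F10 line derives from mouse melanoma and contains no muscle cells of its own. RNA of 10 whole tumors was sequenced on day 15, of which 5 arose from *Mir25* KO cells and 5 from cells with a non-targeting control sgRNA (NTC). The cells were placed under the skin of the left flank in C57BL/6J mice, females of 9 to 12 weeks by the methods. All mice of both groups were on Comb, with the GVAX vaccine (irradiated B16 cells secreting GM-CSF) given on days 1 and 4, and with αPD-1 given on days 6, 9 and 12, at 10 mg/kg. The KO lines were made with CRISPR-Cas9 and sgRNAs to the *Mir25* hairpin, and the labels name neither the sgRNA nor whether a bulk population or a clone was injected. The replicates are called biological, but no animal is named for a tumor, so p-values here measure the spread between these tumors.

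A skeletal muscle fibre contracts when myosin heavy chains in the thick filament pull on actin in the thin filament, and the type of myosin heavy chain sets how fast it does so. In mice, *Myh4* (type IIb), *Myh1* (type IIx) and *Myh2* (type IIa) encode the fast chains and *Myh7* (type I) the slow one, and troponins, light chains and calcium handling proteins come in matching fast and slow forms. Mouse skin carries a thin sheet of skeletal muscle, the panniculus carnosus. In bulk tumor RNA, fewer fibres and less RNA per fibre cannot be told apart.

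Between 23243707 and 27006075 reads were counted on genes in KO tumors and between 11896643 and 28682130 in NTC tumors. The lowest total belongs to NTC replicate 1, where 33193 genes had a count, against 22192 to 25435 in the other 9 tumors. Genes without a count in any of the other tumors took 0.956 reads per kilobase of exon in that library, a measure of its background, and 0.0350 to 0.103 in the others. These rates rest on different genes, 16205 for NTC replicate 1 and 11392 to 11713 for the others. For the others, a gene also had to be without a count in NTC replicate 1, so the rates are not fully alike. No library had a read on *Mir25*, and the knockout could not be checked from these data.

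The fast myosin heavy chain genes *Myh2*, *Myh1* and *Myh4* lie next to each other on chromosome 11 of GRCm38, on the plus strand, from 67171027 to 67197517, from 67200052 to 67224575 and from 67238029 to 67260446. *Myh7* lies on the minus strand of chromosome 14, from 54970684 to 54994626. The 250 bases before the RefSeq start site of these genes are shown because the 3 fast genes had their highest counts in the same tumor and *Myh7* did not. Capitals mark the longest run that *Myh4*, *Myh1* and *Myh2* share, which is 20 bases long and begins 163, 165 and 130 bases before the start site.
Myh4, chr11:67237562-67237811, plus strand of GRCm38.p6: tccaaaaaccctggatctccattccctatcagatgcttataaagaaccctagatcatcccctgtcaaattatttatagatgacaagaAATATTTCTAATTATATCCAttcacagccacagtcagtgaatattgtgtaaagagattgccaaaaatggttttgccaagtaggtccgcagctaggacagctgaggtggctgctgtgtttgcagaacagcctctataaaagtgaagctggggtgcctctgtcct
Myh1, chr11:67199852-67200101, plus strand of GRCm38.p6: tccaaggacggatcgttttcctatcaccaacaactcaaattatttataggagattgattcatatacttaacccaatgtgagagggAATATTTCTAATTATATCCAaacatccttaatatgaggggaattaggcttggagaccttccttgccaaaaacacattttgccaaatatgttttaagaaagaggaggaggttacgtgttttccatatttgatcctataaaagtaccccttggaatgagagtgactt
Myh2, chr11:67170777-67171026, plus strand of GRCm38.p6: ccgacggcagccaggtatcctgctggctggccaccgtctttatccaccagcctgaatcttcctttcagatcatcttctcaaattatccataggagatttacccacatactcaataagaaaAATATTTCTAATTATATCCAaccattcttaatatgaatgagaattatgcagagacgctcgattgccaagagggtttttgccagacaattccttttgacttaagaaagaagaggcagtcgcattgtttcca
Myh7, chr14:54994627-54994876, minus strand of GRCm38.p6: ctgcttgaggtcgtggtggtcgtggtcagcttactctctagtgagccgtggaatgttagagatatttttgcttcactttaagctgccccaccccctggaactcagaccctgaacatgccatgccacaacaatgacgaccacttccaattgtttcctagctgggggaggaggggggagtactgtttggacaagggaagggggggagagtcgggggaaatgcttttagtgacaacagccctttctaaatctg

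On either strand the run occurs in 3 of the 27025 promoters of RefSeq searched over the same length (0.0111%), those of *Myh4*, *Myh1* and *Myh2*. The longest run of the *Myh4* window that is also in the *Myh7* window has 8 bases. The letters TATAAA, searched on both strands, stand 31 bases before the start site in *Myh4* and 32 in *Myh1*, among other places in both windows, are in neither of the other windows shown, and are in 13.0% of all promoters. These matches describe the windows only. Of the 10 genes, 8 have a promoter entry in the table used.

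*Myh4*, the fastest myosin heavy chain, had 10, 46, 447, 1582 and 0 reads in KO replicates 1 to 5, or 0.410, 1.75, 15.1, 57.0 and 0 CPM (reads on a gene relative to library size with TMM factors). In NTC replicates 1 to 5 it had 2, 0, 1, 0 and 0 reads. The reads were thus in KO replicates 4 and 3, then 2 and 1, with none in KO replicate 5, whose value lies within the NTC range. *Myh1* had 9, 7, 100, 306 and 0 reads in KO replicates 1 to 5 and 8, 0, 1, 0 and 1 in NTC replicates 1 to 5. *Myh2* had 1, 1, 34, 141 and 0 reads in KO tumors and 11, 0, 1, 0 and 0 in NTC tumors. Both were highest in KO replicate 4, and the only NTC values above 1 read came from NTC replicate 1. At that library's background rate, the exons of *Myh4*, *Myh1* and *Myh2* would hold 5.75, 6.07 and 6.82 reads, against the 2, 8 and 11 observed. *Myh4*, *Myh1* and *Myh2* share 9.68%, 16.6% and 16.3% of their 75-base windows with another gene, for the last 2 mostly with each other, so reads may be split between them.

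*Myh7*, the slow chain, had 0, 4, 0, 4 and 0 reads in KO tumors and 6, 7, 6, 7 and 5 in NTC tumors. It is the one gene of the 10 whose groups do not overlap, with 0 to 0.152 CPM in KO and 0.173 to 0.808 CPM in NTC tumors. Of the 40689 genes with a count, 0.673% had groups that did not overlap with KO lower. In edgeR's quasi-likelihood test without a filter on low counts, the log2 fold change of *Myh7* was -2.25 with a standard error of 1.11 (adjusted p = 0.466), which does not pass. The counts are few, 15.3% of its 75-base windows are also in *Myh6*, and its exons overlap the antisense genes *Mhrt* and *Gm31251*. In NTC replicate 1 its 6 reads compare with 8.24 at the background rate, whereas in NTC replicates 2 to 5 that rate gives 0.301 to 0.573.

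**Figure D1:**
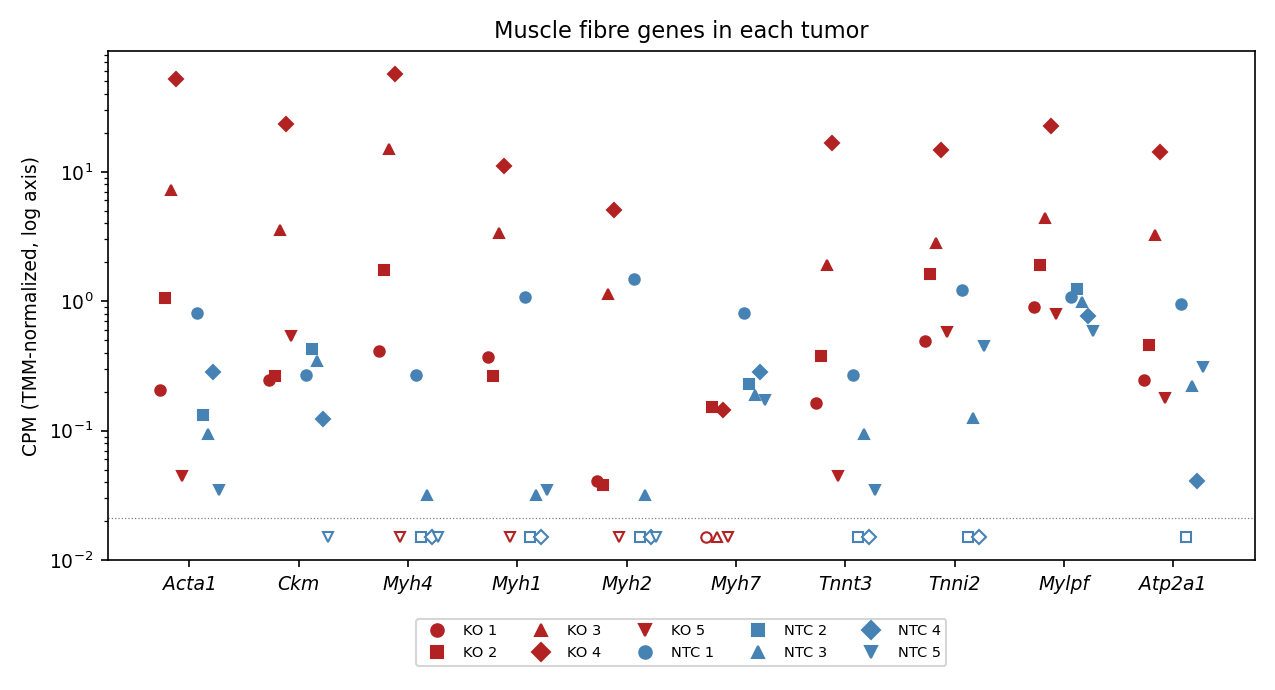
TMM-normalized CPM of each of the 10 genes (log axis) in the 5 KO tumors (red) and 5 NTC tumors (blue), with a marker shape for each replicate and open markers below the dotted line for tumors with 0 reads. KO replicate 4 is highest for 9 genes, followed by KO replicate 3 for 8 of them, and *Myh7* is the exception.

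The thin filament genes had the same order of tumors. *Acta1* (chromosome 8, minus strand, 123891769 to 123894751) encodes skeletal muscle α-actin and had 5, 28, 214, 1449 and 1 reads in KO replicates 1 to 5, or 0.205, 1.06, 7.21, 52.2 and 0.0445 CPM. Its NTC tumors had 6, 4, 3, 7 and 1 reads, and KO replicates 1 and 5 lay within their range. *Tnnt3* (chromosome 7, plus strand, 142498836 to 142516009), the fast troponin T that ties troponin to tropomyosin, had 4, 10, 57, 464 and 1 reads in KO tumors and 2, 0, 3, 0 and 1 in NTC tumors. *Tnni2* (chromosome 7, plus strand, 142441808 to 142444410), the fast inhibitory troponin, had 12, 43, 83, 410 and 13 reads in KO tumors and 9, 0, 4, 0 and 13 in NTC tumors. For these 3 genes the KO and NTC values overlapped, and KO replicates 4, 3 and 2 were the highest tumors in that order.

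*Mylpf* (chromosome 7, plus strand, 127208890 to 127214298), the fast regulatory light chain that binds the neck of myosin, had at least 8 reads in every tumor. It had 22, 50, 131, 623 and 18 reads in KO tumors, or 0.902, 1.90, 4.41, 22.5 and 0.801 CPM, and 8, 38, 31, 19 and 17 reads in NTC tumors, or 1.08, 1.25, 0.978, 0.773 and 0.590 CPM. KO replicates 1 and 5 lay within the NTC range. *Ckm* (chromosome 7, plus strand, 19404776 to 19422841), the muscle creatine kinase that regenerates ATP, had 6, 7, 106, 654 and 12 reads in KO tumors and 2, 13, 11, 3 and 0 in NTC tumors. *Atp2a1* (chromosome 7, minus strand, 126445858 to 126463108), the fast fibre pump that returns calcium to the sarcoplasmic reticulum, had 6, 12, 96, 392 and 4 reads in KO tumors and 7, 0, 7, 1 and 9 in NTC tumors. For *Ckm*, KO replicates 3, 4 and 5 lay above every NTC tumor in CPM, and for *Atp2a1* KO replicates 3 and 4 did. *Atp2a1* shares 21.9% of its exon bases with *Rabep2* on the opposite strand, which had 110 to 701 reads per tumor, and the strand setting of the counting is not given in the sources used here.

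Summed over the 10 genes, the level was 3.08, 7.90, 42.7, 217 and 2.18 CPM in KO replicates 1 to 5 and 8.22, 2.04, 2.15, 1.50 and 1.63 CPM in NTC replicates 1 to 5. Without TMM factors NTC replicate 1 was at 5.13 CPM and KO replicate 2 at 7.93 CPM, so their order turned. KO replicate 4 held 79.0% of all KO reads on these genes and KO replicates 3 and 4 together 95.6%. The step from KO replicate 2 to 3 was 5.41-fold and from 3 to 4 5.08-fold. The mean was 54.6 ± 92.4 CPM (SD, n = 5) in KO and 3.11 ± 2.87 CPM (SD, n = 5) in NTC tumors, so the difference is smaller than the SD of the KO group. Without KO replicates 3 and 4 the KO mean was 4.38 ± 3.08 CPM (SD, n = 3). NTC replicate 1 had 61 reads on the 10 genes, of which its background rate would give 38.4, and without it the NTC mean was 1.83 ± 0.309 CPM (SD, n = 4). For comparison, 7.80% of all genes past the filter were highest in KO replicate 4 and 21.1% in NTC replicate 1.

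The fibre type of the muscle RNA could be read in the tumors with enough reads. Per kilobase of exon, *Myh4* made up 79.4% of the myosin heavy chain in KO replicate 4, *Myh1* 14.5%, *Myh2* 5.96% and *Myh7* 0.140%. In KO replicate 3 the shares were 78.4%, 16.6% and 5.02%, with no read on *Myh7*. As shares of reads, *Myh4* took 77.8% of 2033 reads in KO replicate 4 (95% exact Clopper-Pearson interval 75.9% to 79.6%) and 76.9% of 581 in KO replicate 3 (73.3% to 80.3%). These intervals overlap, as do those of *Myh1* (13.5% to 16.7% and 14.2% to 20.5%) and *Myh2* (5.87% to 8.13% and 4.09% to 8.08%), so no difference in fast myosin make-up between the tumors was detectable at this depth. For *Myh7* the interval was 0.0536% to 0.503% in KO replicate 4, and 0% to 0.633% in KO replicate 3, where 0 of 581 reads allow a share of up to 0.516% by the floor of 3 reads. All these intervals cover counting error only.

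In KO replicate 2, with 58 myosin heavy chain reads, *Myh4* took 79.3% of reads (interval 66.6% to 88.8%) and *Myh7* 6.90% (1.91% to 16.7%). In KO replicate 1, with 20 reads, *Myh4* took 50.0% (27.2% to 72.8%), and *Myh7* had no read. KO replicate 5 had no myosin heavy chain read. NTC replicates 2 to 5 had 6 to 9 reads, of which 5 to 7 were on *Myh7*. In NTC replicate 1 the 27 reads were spread over the 4 genes, 2, 8, 11 and 6, with *Myh4* at 7.41% (0.910% to 24.3%).

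**Figure D2:**
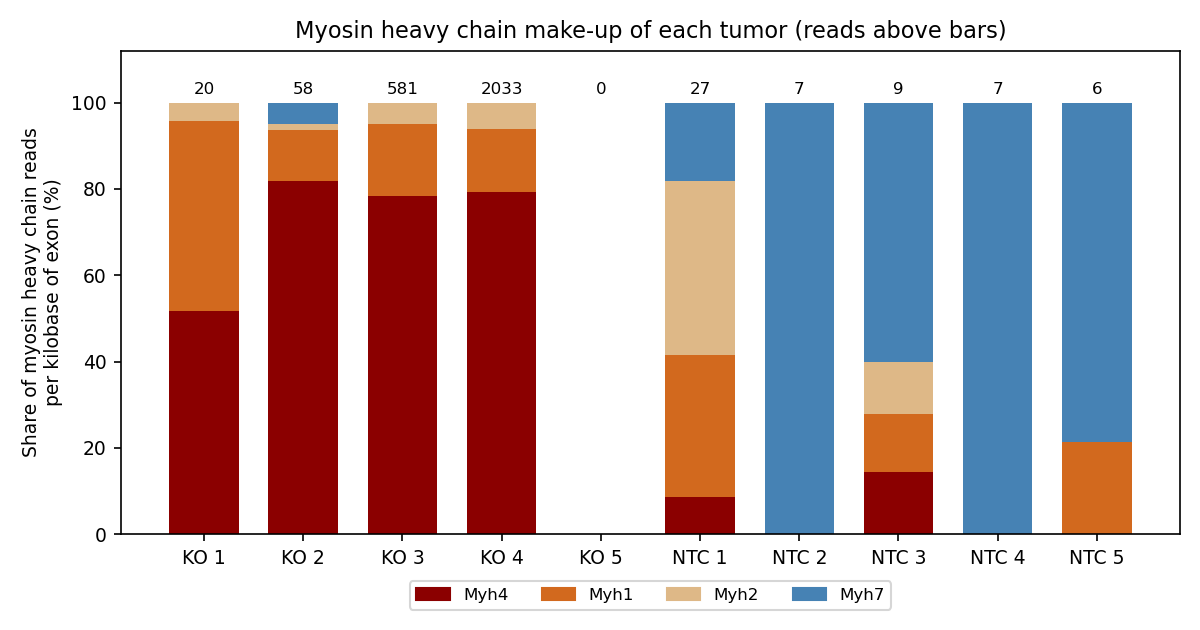
Share of *Myh4*, *Myh1*, *Myh2* and *Myh7* in the myosin heavy chain of each tumor (%, reads per kilobase of exon), with the number of reads above each bar and no bar where there were 0 reads. *Myh4* fills 78.4% to 81.8% of the bars of KO replicates 2, 3 and 4, and the NTC bars rest on 6 to 27 reads each.

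Pairs of fast and slow genes were then compared within the same tumors. In KO replicate 4 the fast gene took 94.1% of reads for troponin T (*Tnnt3* against *Tnnt1*, 464 and 29 reads), 99.5% for troponin I (*Tnni2* against *Tnni1*, 410 and 2), 99.2% for troponin C (*Tnnc2* against *Tnnc1*, 255 and 2), 99.8% for the regulatory light chain (*Mylpf* against *Myl2*, 623 and 1) and 100% for the essential light chain (*Myl1* against *Myl3*, 466 and 0). Calsequestrin, the calcium store of the sarcoplasmic reticulum, was 88.8% fast (*Casq1* against *Casq2*, 87 and 11), and myozenin, a Z-disc protein, 83.7% fast (*Myoz1* against *Myoz2*, 41 and 8). Myosin-binding protein C was the least one-sided of the 9 pairs, at 65.1% fast (*Mybpc2* against *Mybpc1*, 218 and 117, interval 59.7% to 70.2%). *Mybpc1* is named for slow muscle and is known to be made in fast fibres as well. In KO replicate 3 the same pair was at 64.1% (52.4% to 74.7%), and the other pairs lay between 81.4% for troponin T and 100%. KO replicate 2 was less uniform. Troponin I was 97.7% fast there (43 and 1 reads), the regulatory light chain 90.9% (50 and 5) and the essential light chain 100% (32 and 0), but troponin T was 38.5% fast (10 and 16, interval 20.2% to 59.4%), calsequestrin 46.2% (6 and 7, 19.2% to 74.9%) and troponin C 50.0% (2 and 2).

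*Tnnt1* and *Mylpf* also had reads where other fibre genes had few. *Tnnt1* had 13 to 29 reads in the 9 tumors other than NTC replicate 1, which had 6, and its level did not follow that of *Tnnt3*. In NTC replicate 2, *Tnnt3* had 0 reads and *Tnnt1* 22, while *Mylpf* had 38 and *Myl2* 4. The pair shares of tumors with few fibre reads thus point in different directions from pair to pair, and no fibre type was read from them.

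**Figure D3:**
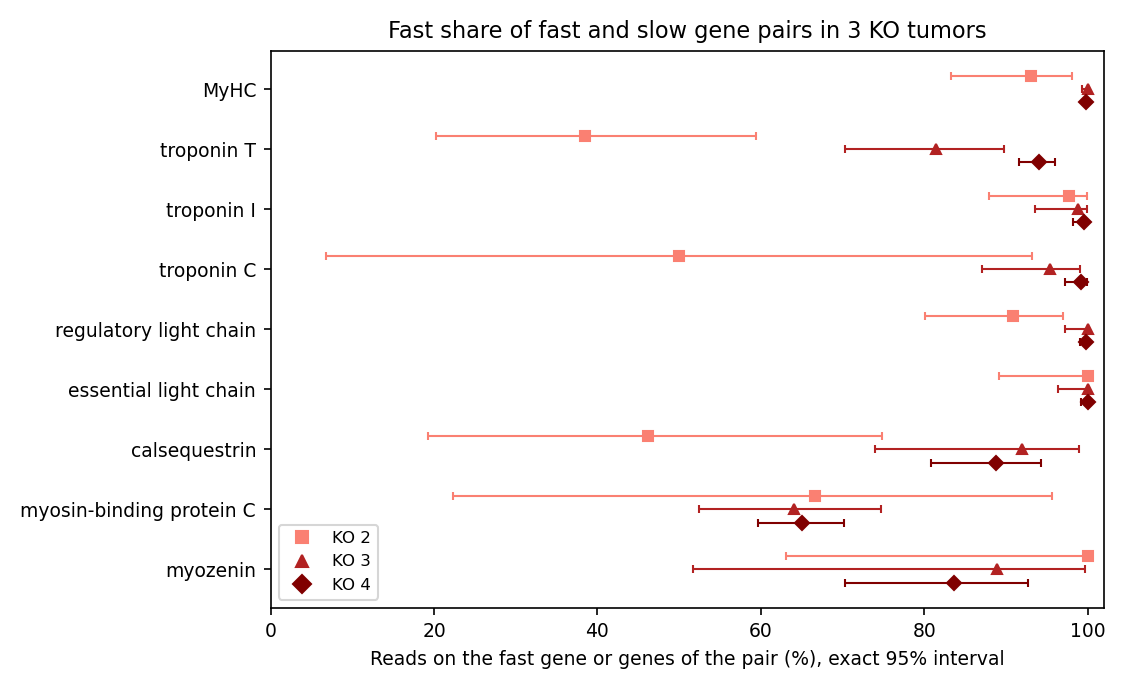
Share of reads on the fast gene (%) for 9 pairs of fast and slow genes in KO replicates 2, 3 and 4, with bars for exact 95% intervals. In KO replicates 3 and 4, 8 of the 9 pairs lie above 80% and myosin-binding protein C lies at 64.1% and 65.1%, and in KO replicate 2 troponin T and calsequestrin lie at 38.5% and 46.2%.

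The 10 genes were not present in the same proportions in the tumors that held most of their reads. Per kilobase of exon, KO replicate 4 was led by *Acta1* (34.0 CPM per kilobase), *Mylpf* (21.1), *Tnnt3* (10.6), *Tnni2* (9.87) and *Myh4* (9.48), and KO replicate 3 by *Acta1* (4.69), *Mylpf* (4.16), *Myh4* (2.50) and *Tnni2* (1.87). *Acta1* took 24.1% of the reads on the 10 genes in KO replicate 4 (exact interval 23.0% to 25.2%) and 16.9% in KO replicate 3 (14.9% to 19.1%), whereas *Myh4* took 26.3% (25.2% to 27.4%) and 35.3% (32.6% to 38.0%). The ratio of CPM in KO replicate 4 to KO replicate 3 was 3.27 for *Myh1* (interval 2.60 to 4.15), 3.79 for *Myh4* (3.41 to 4.22) and 4.44 for *Myh2* (3.03 to 6.66). It was 7.25 for *Acta1* (6.27 to 8.40), 6.60 for *Ckm* (5.37 to 8.19) and 8.71 for *Tnnt3* (6.61 to 11.7), above the intervals of *Myh4* and *Myh1*. For *Tnni2*, *Mylpf* and *Atp2a1* the ratio was 5.29, 5.09 and 4.37. Among the partner genes, *Pvalb*, the calcium buffer of fast fibres, had a ratio of 8.86 (5.84 to 14.0) and *Actn3*, the fast fibre α-actinin, 3.40 (2.41 to 4.89). These intervals compare 2 libraries and not 2 conditions.

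**Figure D4:**
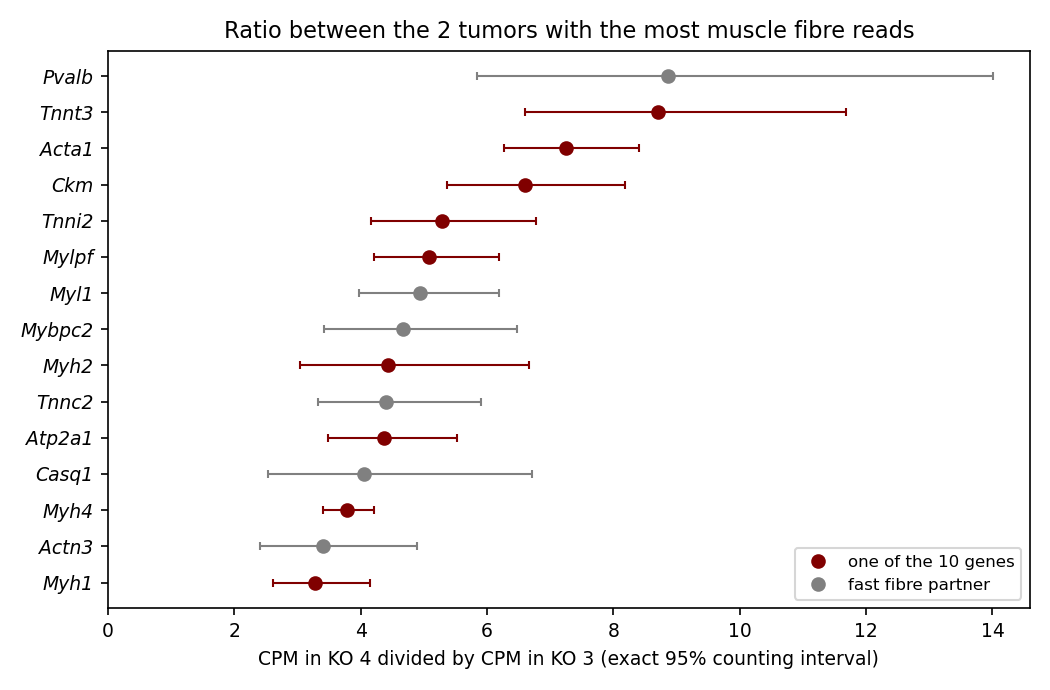
Ratio of CPM in KO replicate 4 to CPM in KO replicate 3 for 9 of the 10 genes (all but *Myh7*) and for the fast fibre partner genes with at least 10 reads in KO replicate 3, with exact 95% counting intervals. The ratios run from 3.27 for *Myh1* to 8.86 for *Pvalb*.

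KO and NTC tumors were compared with edgeR's quasi-likelihood test over all 10 tumors, with a call at an absolute log2 fold change above 1 and an adjusted p under 0.05. Of the 10 genes, 2 passed the filter on low counts, *Tnni2* and *Mylpf*, and 0 were called, where 0.00632% of the 15821 genes tested were called higher. The log2 fold change was 3.87 for *Tnni2* (standard error 1.35, adjusted p = 0.415) and 2.71 for *Mylpf* (standard error 0.905, adjusted p = 0.393), and the median over all genes tested was 0.01. Their unadjusted p was 0.0158 and 0.0127, and 3.99% of all genes tested were higher in KO at an unadjusted p under 0.05. *Tnni2* passed the filter through its KO tumors, with 12, 43, 83, 410 and 13 reads against 9, 0, 4, 0 and 13 in NTC tumors. It was thus picked in part for being high in KO, and its p is no independent support for a difference. The mean of *Tnni2* was 4.06 ± 6.07 CPM (SD, n = 5) in KO and 0.358 ± 0.512 CPM (SD, n = 5) in NTC tumors, and that of *Mylpf* 6.09 ± 9.26 and 0.933 ± 0.258 CPM (SD, n = 5), so for both genes the difference is smaller than the SD of the KO group. For both, KO replicates 2, 3 and 4 lay above every NTC tumor and KO replicates 1 and 5 did not. With KO replicates 3 and 4 left out, edgeR's log2 fold change was 1.66 for *Tnni2* (adjusted p = 0.539) and 0.37 for *Mylpf* (adjusted p = 0.696).

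The count of called genes depended on the test, the filter and the tumors. Without a filter, edgeR called 0 of the 10, and the log2 fold change was largest for *Myh4* (8.92, standard error 1.76, adjusted p = 0.196), followed by *Tnnt3* (6.09, adjusted p = 0.403) and *Acta1* (5.94, adjusted p = 0.403). These sizes rest on 3, 6 and 21 reads over all NTC tumors together, so their order is not firm. DESeq2 without the filter on low counts kept its default settings, which still leave many genes of low mean count without an adjusted p. Shares of all genes given for these DESeq2 fits are of the genes with an adjusted p, 17936 of 40351 tested over 10 tumors. DESeq2 called 4 of the 10 higher over all 10 tumors (*Acta1*, *Myh4*, *Tnnt3* and *Mylpf*), where 0.167% of genes were called higher. With NTC replicate 1 left out it called 7 higher (*Acta1*, *Ckm*, *Myh4*, *Myh1*, *Tnnt3*, *Tnni2* and *Atp2a1*), where 3.32% of genes were called higher. In that fit *Myh4* had a log2 fold change of 10.4 (standard error 2.39, DESeq2 adjusted p = 0.00173, against 0.00507 to 0.488 in the fits run otherwise), *Myh2* had an adjusted p of 0.0518 and *Myh7* a log2 fold change of -1.87 (adjusted p = 0.291). With KO replicate 4 left out as well, 5 of these 7 were called, *Ckm* and *Atp2a1* having no adjusted p, and 6.41% of all genes were called higher. With KO replicate 3 left out too, DESeq2 called *Myh4* alone of the 7 with an adjusted p (log2 fold change 6.08, standard error 1.74, adjusted p = 0.00507). There 8.62% of the genes with an adjusted p were called higher, so a count of 1 is near that share. The 10 genes were chosen with earlier results of these tumors known.

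Other genes of the fibre followed in part. Of 7 fast fibre partner genes, 1 passed the filter, *Actn3* (log2 fold change 2.53, standard error 1.05, edgeR adjusted p = 0.511), and 0 were called by edgeR, while DESeq2 without a filter and without NTC replicate 1 called 4 higher (*Tnnc2*, *Pvalb*, *Mybpc2* and *Myoz1*), where it called 3.32% of all genes, and over all 10 tumors it called *Pvalb* and *Mybpc2* alone of them. The fast partners were highest in KO replicate 4 for 7 of 7 genes, and their summed level was 51.0 CPM there, 10.5 in KO replicate 3 and 0.379 to 2.58 in the other 8 tumors. *Pvalb* had 25 and 207 reads in KO replicates 3 and 4 and 0 in every NTC tumor. *Myl1*, the fast essential light chain, had 101 and 466 reads in these KO tumors, 32 in KO replicate 2, and 0, 6, 0, 13 and 6 in NTC tumors.

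Of 8 slow fibre partners, 1 was tested and 0 were called by edgeR, and 1, *Mybpc1*, was called higher by DESeq2 without a filter and without NTC replicate 1 (adjusted p = 0.00894), where 3.32% of all genes were called higher. That call was lost over all 10 tumors (DESeq2 adjusted p = 0.0772) and with KO replicate 4 left out as well (adjusted p = 0.0799). Their summed level was 6.13 CPM in KO replicate 4, of which *Mybpc1* gave most with 117 reads, 4.85 in NTC replicate 1 and 1.14 to 1.71 in the other 8. In KO replicate 4, *Tnni1*, *Tnnc1*, *Myl2* and *Myl3* had 2, 2, 1 and 0 reads.

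The sarcomere frame and the genes of excitation and energy use were tested at 5 of 14 and 6 of 14 genes. EdgeR called 0 of either, and the median log2 fold change of those tested was 0.46 and -0.02. *Ttn*, the giant spring of the sarcomere, had 281 to 564 reads in KO replicates 1, 2 and 5, 2338 and 4344 in KO replicates 3 and 4 and 165 to 693 in NTC tumors, with a log2 fold change of 1.87 (standard error 0.652, edgeR adjusted p = 0.415). *Neb*, which runs along the thin filament, was at 28.5 CPM in KO replicate 4, 11.9 in KO replicate 3 and 6.37 to 16.7 in the other 8 tumors. *Trim63*, a muscle ubiquitin ligase, was at 35.1 CPM on average in KO and 41.8 in NTC tumors (log2 fold change -0.25, edgeR adjusted p = 0.755), and *Eno3*, muscle enolase, at 21.4 and 19.1 CPM (0.16, adjusted p = 0.879), so these list genes were present in all tumors. *Xirp2*, an actin-binding repeat protein of muscle, and *Tcap*, the cap of titin at the Z-disc, had 319 and 112 reads in KO replicate 4 and at most 18 and 8 in any NTC tumor. DESeq2 without a filter and without NTC replicate 1 called 3 frame genes higher (*Xirp2*, *Smpx* and *Cmya5*) and 3 of excitation and energy (*Ryr1*, *Trdn* and *Mb*), where 3.32% of all genes were called higher. Over all 10 tumors it called none of these genes, *Mb* having no adjusted p, and with KO replicate 4 left out as well as NTC replicate 1 it called *Ryr1* and *Trdn*. *Mb*, the oxygen store myoglobin, was at 1.98 CPM in KO replicate 4, 1.08 in NTC replicate 1 (8 reads, 1.43 at the background rate) and 0 in NTC replicates 2 to 5. *Ryr1*, the calcium release channel, was at 4.61 CPM in KO replicate 4, 4.04 in NTC replicate 1 and 0.347 to 1.82 in the other tumors. *Trdn*, which anchors calsequestrin near that channel, was at 2.67 CPM in KO replicate 4, 2.29 in NTC replicate 1 and 0 to 0.808 in the others. In NTC replicate 1 the background rate would give 20.9 of the 30 *Ryr1* reads and 8.94 of the 17 *Trdn* reads. The CPM of NTC replicate 1 were close to those of KO replicate 4 for both genes. That nearness rests in part on these background reads and on the TMM factor of NTC replicate 1, 0.628.

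Genes of other muscle and of muscle formation were few in reads or were not led by KO replicates 4 and 3 as lists. After NTC replicate 1, at 4.31 CPM, the developmental list was highest in KO replicates 3 and 4, at 0.472 and 0.397 CPM. The remaining tumors had 0.0347 to 0.266 CPM. The embryonic myosin *Myh3* was at 0.360 CPM in KO replicate 4 (10 reads), 0.808 in NTC replicate 1 and 0.0347 to 0.266 in the other tumors, and the neonatal myosin *Myh8* had 0 in KO replicate 4 and 2 in KO replicate 3. The satellite cell and myogenic factor genes *Pax7*, *Myod1*, *Myf5*, *Myf6* and *Myog* had 0 to 4 reads in any tumor, and *Mymk* had none in any. Of 7 cardiac muscle genes 0 were highest in KO replicate 4, their summed level was 1.05 CPM there and 0.591 to 5.52 CPM over the tumors, and the cardiac α-myosin *Myh6* had 0 reads in KO replicates 2 to 5. *Tnnt2*, cardiac troponin T, had a log2 fold change of -0.49 (edgeR adjusted p = 0.833), and *Tnni3*, cardiac troponin I, had 1 to 29 reads in KO and 0 to 10 in NTC tumors. The smooth muscle and pericyte genes ran from 71.5 to 137 CPM in KO and from 49.7 to 292 CPM in NTC tumors, highest in NTC replicate 1, with 0 of 6 tested genes called by edgeR. For *Acta2* and *Tagln* the log2 fold change was -0.38 (edgeR adjusted p = 0.907) and -0.74 (adjusted p = 0.810), and for *Rgs5*, a pericyte marker, and *Smtn* it was -0.02 each (adjusted p = 0.994 and 0.984). *Smtn* had its highest level in KO replicate 4, at 31.6 CPM. In NTC replicate 1 the background rate would give 30.5 of the 32 reads on the developmental genes, 22.7 of the 41 on the cardiac genes and 23.9 of the 2165 on the smooth muscle and pericyte genes.

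Of the markers of other tissues, those of keratinocytes were high in the same tumors. The 7 keratinocyte genes summed to 21.7 CPM in KO replicate 3, 6.13 in KO replicate 4, 3.10 in NTC replicate 1, 0.178 to 0.987 in KO replicates 1, 2 and 5 and 0 to 0.189 in NTC replicates 2 to 5. *Krt5* and *Krt14*, the keratins of the basal layer, had 196 and 230 reads in KO replicate 3, 29 and 43 in KO replicate 4 and at most 7 in the other tumors. The 2 tumors with the most fibre reads thus also had the most keratinocyte reads, in the opposite order. In NTC replicate 1 the background rate would give 21.4 of its 23 keratinocyte reads. DESeq2 without a filter and without NTC replicate 1 called 3 keratinocyte genes higher (*Krt10*, *Krt15* and *Trp63*) and 4 of 6 leukocyte genes (*Cd52*, *Laptm5*, *Cd53* and *Tyrobp*), where 3.32% of all genes were called higher, and over 10 tumors neither edgeR nor DESeq2 without a filter called any of them. The 6 adipocyte genes were at 102 CPM in KO replicate 3 and 28.4 in KO replicate 4, within the 8.83 to 185 CPM of the other tumors. *Fabp4*, a fatty acid carrier, had 2360 and 684 reads in these tumors and 215 to 3377 elsewhere. *Adipoq*, a hormone of fat cells, had 142 and 33 there and 0 to 153 elsewhere. *Fabp4* made up 79.5 of the 102 CPM in KO replicate 3, and 3 of the 6 genes were highest of all tumors there. These were *Plin1*, the lipid droplet coat protein, at 8.02 CPM against at most 5.39 elsewhere, *Cidec*, another lipid droplet protein, at 5.32 against 3.38, and *Lep*, leptin, at 2.59 against 2.05, and none of the 6 was highest in KO replicate 4. The leukocyte genes were lowest of the KO group in KO replicates 4 and 3, at 375.7 and 452.9 CPM, against 960 to 2092 CPM in KO replicates 1, 2 and 5 and 168 to 1497 CPM in NTC tumors. *Ptprc*, the leukocyte surface marker CD45, had a log2 fold change of 0.88 (standard error 0.673, edgeR adjusted p = 0.734). The melanoma genes, led by *Tyrp1* and *Dct*, summed to 18280 and 16224 CPM in KO replicates 3 and 4, within the 10825 to 20540 CPM of all tumors. The part of these tissues in the result was not tested.

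**Figure D5:**
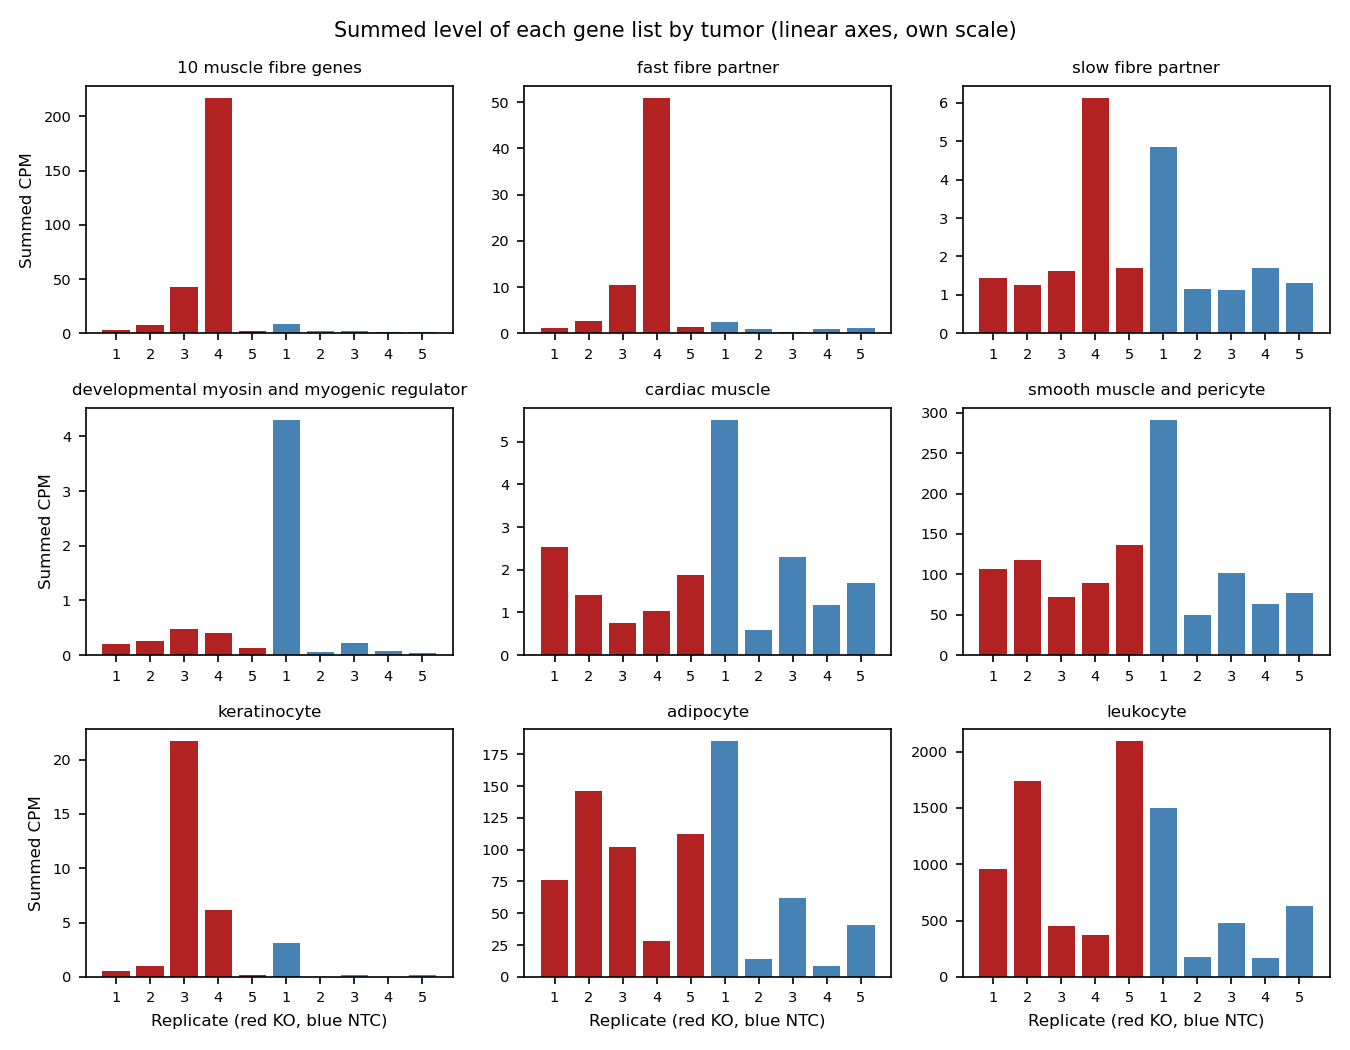
Summed CPM of 9 gene lists in each tumor (linear axes, each panel on its own scale; KO in red, NTC in blue, numbered by replicate). The 10 muscle fibre genes and the fast partners stand out in KO replicates 4 and 3, the keratinocyte genes in KO replicate 3, and the developmental, cardiac and smooth muscle genes are highest in NTC replicate 1, where background would give 30.5 of 32 developmental reads.

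The genes most like the 10 were found by Pearson's r over the 10 tumors between their log2 CPM and the log2 of the summed level, given as a description, since KO replicates 3 and 4 set most of its range and the tumors share libraries with all genes. Among 15819 genes the highest were *Myh14* (r = 0.957), a non-muscle myosin heavy chain, *Ttn* (0.954), *Ssr1* (0.911), *Poc5* (0.901), *Actn3* (0.897), *Slc12a2* (0.886) and *Nrap* (0.870), an actin anchoring protein of muscle. *Pum3*, *Cspg4*, *Lmo1*, *Atrnl1*, *Etv5*, *A030001D20Rik*, *Hif1an*, *Rab11fip4*, *Gm6210*, *Pcyox1l*, *Ccnj*, *Hdgf* and *Arl3* complete the 20, down to r = 0.824, and the median over all genes was 0.0242. Of the 20, 2 are in the muscle lists (*Ttn* and *Actn3*), of whose 51 genes 13 passed the filter. *Myh14* was at 3.17 and 6.52 CPM in KO replicates 3 and 4 and at 0.726 to 1.48 CPM in the other tumors. *Nrap* was at 1.28 and 4.79 CPM there and at 0.122 to 1.08 CPM elsewhere. Others had a narrower range, *Ssr1* from 202 to 261 CPM and *Hdgf* from 200.1 to 248 CPM over the 10 tumors. Without KO replicate 4, 3 of the 20 stayed among the 20 most alike, *Myh14* (r = 0.889), *Ttn* (0.891) and *Gm6210* (0.871). *Tnnt1*, the slow troponin T, had r = -0.264 over 10 tumors and -0.849 without KO replicate 4.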

How the data were processed

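Bulk RNA sequencing of 10 tumors was analysed from tables of counts per gene, 1 per tumor, with groups and replicate numbers from the sample labels. Per the labels, the authors used FastQC, Trimmomatic, HISAT2 and HTSeq with mm10, and deposited the counts without normalization. The HTSeq version, the annotation and the strand setting are not given in the sources used here. Summary rows were left out of library sizes. Gene positions and exon lengths came from GENCODE M21 on GRCm38 and promoters from RefSeq on GRCm38.p6.

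KO and NTC tumors were compared with edgeR 4.0.16 (quasi-likelihood test with TMM factors, after its filterByExpr) in R 4.3.3, with Benjamini-Hochberg adjustment over all genes tested, an absolute log2 fold change above 1 and an adjusted p under 0.05. The standard error was taken as the size of the log2 fold change over the root of F. Alternatives were DESeq2 1.42.0, RLE normalization, no filter, a filter of at least 10 counts in every tumor, calls without a fold threshold, the replicate number as a block, each tumor left out, and KO replicates 3 and 4 left out. DESeq2 without a filter, over 10, 9, 8 or 7 tumors, was added after seeing the data. It left out filterByExpr and kept DESeq2's defaults, by which genes of low mean count got no adjusted p. Shares of genes called in these fits are of the genes with an adjusted p. Log2 CPM used a prior count of 2, and tables were made in Python 3.11.15 (scipy 1.17.1, pandas 2.3.3, numpy 2.4.6) and figures with matplotlib 3.10.9. Shares of reads have exact Clopper-Pearson 95% intervals, which cover counting error only.

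The 10 genes and the gene lists were chosen with earlier results of these data known. Genes named are the 10, both genes of each fast and slow pair, the 20 genes with the most alike pattern, and from each list 2 to 4 genes with the highest mean CPM and those called. *Tcap*, *Lep*, *Myh6* and the remaining myogenic factors were named after their values were seen. On counts simulated over these 10 tumors, with 200 of 15629 genes changed, edgeR and DESeq2 each recovered 192, with 12 unchanged genes called. These counts hold only for the size of change and the spread set in the simulation. Recovery of genes like the 10, where KO replicate 4 held 79.0% of all KO reads, was not tested. DESeq2 without a filter, the fit that called some of the 10 genes, was not simulated.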

Additional observations from a re-analysis of the deposited data

Results flagged for a closer look

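Within a group of 5 tumors, a value was picked out where its gap to the nearest other value exceeded 0.71 of the group's range (Dixon's 95% critical value). Of 22 groups of values compared, 14 had such a value, 9 of them in KO replicate 4 and 5 in NTC replicate 1. With normal values chance would pick about 1 in 20, but CPM are skewed, the genes share the same tumors and they were chosen with earlier results of these tumors known, so the count is a description.

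In KO replicate 4 these were the summed level of the 10 genes, 217 CPM against 2.18 to 42.7 CPM in the other KO tumors, and the levels of 8 single genes. *Acta1* was at 52.2 CPM against at most 7.21, *Ckm* at 23.6 against 3.57, *Myh4* at 57.0 against 15.1 and *Myh2* at 5.08 against 1.15. *Tnnt3* was at 16.7 CPM against at most 1.92, *Tnni2* at 14.8 against 2.80, *Mylpf* at 22.5 against 4.41 and *Atp2a1* at 14.1 against 3.23. *Myh1* was also highest there and did not pass the criterion.

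In NTC replicate 1 the summed level was 8.22 CPM against 1.50 to 2.15 CPM in the other NTC tumors. *Myh4* was at 0.269 CPM against at most 0.0315, *Myh1* at 1.08 against 0.0347, *Myh2* at 1.48 against 0.0315 and *Myh7* at 0.808 against 0.285. These 4 values rest on 2, 8, 11 and 6 reads, beside 5.75, 6.07, 6.82 and 8.24 reads at the background rate of that library.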

How the results depend on the processing

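The count of the 10 genes called lower in KO tumors was 0 in the edgeR fit reported and in every alternative run. Few of the 10 could be called by edgeR after its filter, since 2 were tested in the fit reported and 2 to 7 with a tumor left out. Without a filter 10 were tested. *Myh7*, the gene with lower values in KO, did not pass the filter of the fit reported, so a call of it there was not possible. The count called higher was 0 by edgeR in every fit, with each tumor left out in turn included (0 to 0), and 0 by DESeq2 on the filtered genes, where *Mylpf* had an adjusted p of 0.0508 and *Tnni2* 0.110. By DESeq2 without a filter it was 4 over 10 tumors and 7 over 9 without NTC replicate 1. It was 5 without KO replicate 4 as well and 1 without KO replicate 3 too. In these fits 9, 10, 7 and 7 of the 10 genes held an adjusted p. Of all genes with an adjusted p, 0.167%, 3.32%, 6.41% and 8.62% were called higher. Of the 43 genes in the fast, slow, frame and excitation lists, these fits called 2, 11, 5 and 2 higher, against 0 by edgeR, and the last called 1 lower (*Pygm*). With 32, 33, 30 and 22 of the 43 genes holding an adjusted p, the last count is near the share over all genes with an adjusted p. The cause of these differences was not tested. The log2 fold change of *Tnni2* ran from 1.66 to 4.81 with adjusted p from 0.0181 to 0.724, and that of *Mylpf* from 0.37 to 2.99 with adjusted p from 0.0492 to 0.712, both positive in every fit. At least 10 counts in every tumor left none of the 10 genes to test. Without TMM factors, the summed level in NTC replicate 1 was 5.13 CPM in place of 8.22. Of the 20 most alike genes, 3 were kept without KO replicate 4. With the number as a replicate block, edgeR called 0 of the 10 genes, and the log2 fold change was 3.30 for *Tnni2* (adjusted p = 0.534) and 1.53 for *Mylpf* (adjusted p = 0.526). The deviations of same-numbered tumors from their group means correlated at 0.172, -0.287, 0.079, 0.633 and 0.206, and 2 of 5 KO tumors correlated best with the NTC tumor of their number, so the numbers were not taken as pairs. Over all genes the block changed the calls from 1 higher and 2 lower to 1 and 0. Levels under 3 reads per tumor, as for *Myh4*, *Myh1*, *Myh2* and *Tnnt3* in most NTC tumors, carry no order.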

Other observations

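3 further sarcomeric myosin heavy chains had few reads in the tumors with most fibre RNA. *Myh13*, the extraocular muscle myosin, had 5 reads in KO replicate 4 and 17 in NTC replicate 1. *Myh15* had 0 and 6 reads and *Myh7b* 4 and 8 reads in the same tumors. The neonatal myosin *Myh8* had 22 reads in NTC replicate 1 and 0 to 2 in the other tumors. At the background rate of NTC replicate 1, *Myh13*, *Myh15*, *Myh7b* and *Myh8* would hold 5.91, 6.06, 6.34 and 11.3 reads.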
